A study of Sus scrofa with 23 samples.

Results

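The question here is whether osteochondrosis status went with the same change in messenger RNA in the articular cartilage of the femur as in that of the humerus. The quantity described is the effect of status in the femur (affected minus non-affected) minus the effect of status in the humerus, called the interaction below, so a negative interaction means that the affected samples lay lower in the femur than the humerus effect would give. It uses all 23 arrays of the study, which measured pigs of a Duroc and Pietrain cross on the Affymetrix Porcine Genome Array. The groups are 4 arrays of affected and 5 of non-affected cartilage of the medial femoral condyle, and 8 arrays of affected and 6 of non-affected cartilage of the medial part of the humeral condyle. All animals carry the same cross, no treatment is given in the labels, and the samples are said to come from affected and non-affected sibs without saying which arrays are sibs. The labels give neither the animals' age, nor the stage of the lesion, nor whether 1 animal gave both joints, and a p-value therefore weighs the spread among these arrays alone, which may be technical.

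Osteochondrosis is a disturbance of endochondral ossification in growing animals, in which a focus of cartilage below the joint surface loses its blood supply, fails to turn into bone and may break away. The medial femoral condyle and the humeral condyle are both common sites of it in pigs. Articular cartilage is built by chondrocytes, which secrete collagens and aggrecan, while vessels, marrow cells and phagocytes belong to the bone and vascular canals beside it. A tissue block may therefore hold RNA of several cell types, and in such samples fewer cells of a type and less RNA per cell cannot be told apart.

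The arrays were compared before they were averaged. Arrays 5 and 6 of affected humerus differed by an SD of 0.1075 over probe sets on the log2 scale, and arrays 1 and 2 of non-affected femur by 0.2138, against at least 0.341 for any other pair of a group. Each of these pairs was averaged and counted as 1 sample, which left 21 samples: 4 affected and 4 non-affected femur, 7 affected and 6 non-affected humerus. Chondrocyte markers were present as the labelled tissue asks: all 5 that the array names (of 6 listed) were above the floor of the table in all groups. In the femur their mean log2 value was 12.27 ± 0.17 (SD, n = 4) with the disorder and 11.83 ± 0.20 (SD, n = 4) without it. In the humerus it was 11.90 ± 0.29 (SD, n = 7) with the disorder and 12.16 ± 0.18 (SD, n = 6) without it. The joints also differed in the hybridisation controls, which are bacterial and phage transcripts added to each array: the mean of their 9 probe sets ran from 11.41 to 11.66 on the femur arrays and from 10.23 to 10.56 on the humerus arrays. Within a joint these controls overlapped between affected and non-affected arrays. Joint and array processing cannot be told apart, and this touches any level set across joints. Each effect of status is a difference within 1 joint, but the interaction compares the sizes of such effects across joints. The control BioB-3 ran from 9.586 to 9.865 on femur and from 7.947 to 8.316 on humerus arrays. CreX-3 differed less, from 13.636 to 13.917 and from 13.492 to 13.649. A mean of 5.169% of probe sets lay at the floor on femur arrays and 2.591% on humerus arrays. How far this shaped the interaction was not tested.

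Of the 16799 probe sets bright enough to be tested, 45 differed in their effect of status between the joints at an adjusted p under 0.05 (limma, Benjamini-Hochberg), which is 0.268% of them. In 38 of these, or 0.226% of those tested, the femur effect was the lower one, and in 7, or 0.0417%, it was the higher one. At an unadjusted p under 0.05 the interaction took in 3177 probe sets, or 18.9%. The 45 had a median interaction of 1.564 in size on the log2 scale, or 2.96-fold, with a range from 0.645 to 3.203. The changes sat in the femur: over the 45, the median size of the effect was 1.348 in the femur and 0.193 in the humerus, and the femur effect was the larger in each of the 45, against 68.6% of all probe sets tested. The femur groups did not overlap in 44 of the 45, while this held for 8.08% of all probe sets, and the humerus groups did not overlap in 1 of the 45, against 0.22% of all probe sets. The interaction is itself built from these groups, so the counts describe the calls and are no second test. Small groups separate more readily, and the femur groups held 4 samples each against 7 and 6 in the humerus. The overlap counts therefore do not compare the joints.

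The called probe sets were of 2 kinds by which femur group stood away from the mean of the 4 groups. In 28 of them it was the non-affected femur, high in 23 and low in 5, and in 17 the affected femur, low in 15 and high in 2. Over all probe sets tested, non-affected femur was the farthest group on the high side in 13.1% and affected femur on the low side in 20.7%. That a femur group was farthest follows from the larger femur effect, and which of them it was rests on the level between joints, where array processing cannot be told apart from the joint.

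A library could decide the number of calls. It fell below 30 without humerus non-affected replicate 1 (25 calls), 3 (29), 4 (16), 5 (24) or 6 (17), without humerus affected replicate 1 (27), 2 (20) or 4 (18), without femur non-affected replicate 1 and 2 (20) or 3 (15), and without femur affected replicate 2 (22) or 3 (15). It rose to 98 without femur affected replicate 1, to 77 without femur affected replicate 4 and to 70 without humerus non-affected replicate 2.

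**Figure D1:**
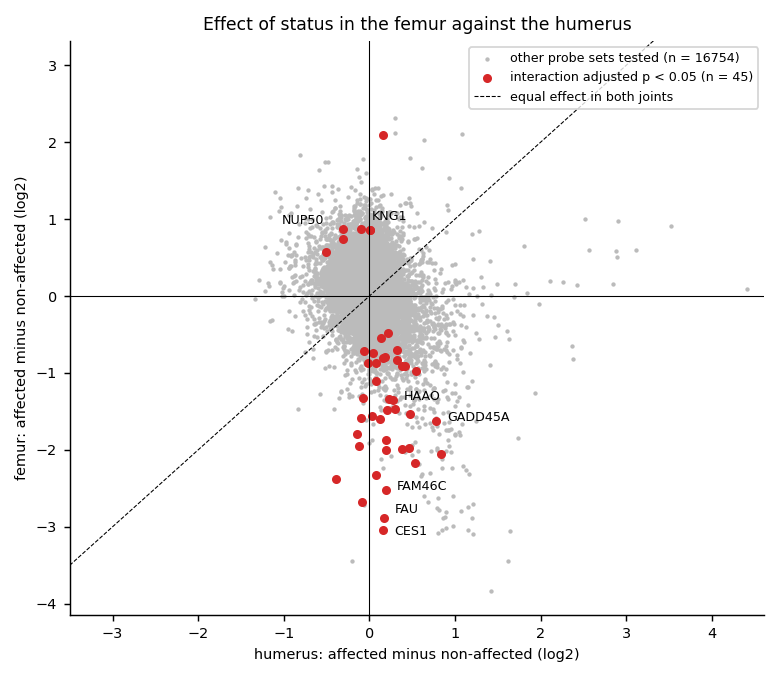
The effect of status in the femur (vertical axis, affected minus non-affected, log2) is plotted against that in the humerus (horizontal axis) for each of 16799 probe sets, with the 45 whose effects differed at an adjusted p under 0.05 in red and the line of equal effects dashed. The red points spread along the femur axis, 38 of them below the line, and lie close to 0 in the humerus.

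More probe sets had status effects of opposite sign in the joints than of the same sign. Over all probe sets tested, 57.6% had opposite signs: 31.1% were higher in affected femur and lower in affected humerus, and 26.5% the reverse, while 22.4% were lower in both and 3368 probe sets were higher in both. Across these probe sets, which share the same 21 arrays and are no independent replicates, the femur and humerus effects had a Pearson r of -0.296, and it lay between -0.341 and -0.167 when each sample was left out in turn. Effects were larger in the femur, with a median size of 0.221 against 0.116 in the humerus, and so were their median SEs, at 0.191 against 0.15. At an unadjusted p under 0.05 the femur effect took in 20.4% and the humerus effect 6.55% of the probe sets. At an adjusted p under 0.05 (limma) the femur effect was called in 192 probe sets and the humerus effect in 0. The humerus side of the opposite signs is therefore a lean in the values, with no call of its own.

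The probe set with the smallest interaction p had no gene symbol in the platform annotation. It had a mean of 4.06 ± 0.07 (SD, n = 4) in non-affected femur, at the floor of the table near 4, and 6.15 ± 0.27 (SD, n = 4) in affected femur, 6.22 ± 0.20 (SD, n = 7) in affected humerus and 6.05 ± 0.22 (SD, n = 6) in non-affected humerus. Only the non-affected femur stood apart there, and the interaction was 1.93 ± 0.19 (SE, limma adjusted p = 4.58e-05). Another 18 of the 45 were also without a symbol, and the other 26 belonged to 25 genes.

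Among the named genes, FAU had the smallest p with a lower femur effect. FAU encodes a ubiquitin-like protein fused to a protein of the small ribosomal subunit. It read 8.86, 8.79, 7.95 and 8.57 in the non-affected femur samples and 6.78, 4.64, 5.73 and 5.45 in the affected ones. In the humerus it ran from 4.99 to 5.45 (median 5.12) without and from 4.96 to 5.83 (median 5.29) with the disorder. The non-affected femur samples thus lay above all others, with no overlap in the femur and full overlap in the humerus, and the interaction was -3.07 ± 0.39 on the log2 scale (SE, limma adjusted p = 0.00118). This probe set does not speak for the gene as a whole, since other FAU probe sets had interactions of -0.16 and -0.22.

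HAAO, an enzyme of tryptophan breakdown by the kynurenine pathway, showed the opposite arrangement. The affected femur samples were the low ones at 4.97, 5.26, 5.69 and 5.47, while the non-affected femur samples sat at 6.75, 6.61, 6.70 and 6.72. In the humerus HAAO ran from 6.23 to 6.72 (median 6.53) in non-affected and from 6.46 to 7.33 (median 6.83) in affected cartilage. The interaction was -1.62 ± 0.22 (SE, limma adjusted p = 0.00181), and the second HAAO probe set had -1.22 at an adjusted p of 0.0696. TNFSF13, the cytokine APRIL that supports B cells and plasma cells, followed the same arrangement. It read 6.33, 5.22, 4.94 and 5.43 in affected and 7.55, 7.30, 7.68 and 7.35 in non-affected femur. The humerus samples ran from 6.74 to 7.90 (median 7.27) with and from 5.82 to 7.33 (median 7.17) without the disorder, so that 1 humerus sample lay within the range of the affected femur and all others above it. The interaction of TNFSF13 was -2.37 ± 0.40 (SE, limma adjusted p = 0.0135), against -0.73 for another of its probe sets.

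AZGP1, a secreted glycoprotein tied to fat mobilisation, read 8.70, 7.73, 8.19 and 7.80 in non-affected and 5.94, 5.88, 6.50 and 6.11 in affected femur. In the humerus it ran from 5.74 to 7.28 (median 6.52) in non-affected and from 6.23 to 7.15 (median 6.56) in affected samples, so only the non-affected femur stood high. The interaction was -2.20 ± 0.36 (SE, limma adjusted p = 0.0102). GPIHBP1, which carries lipoprotein lipase to the capillary wall, read 8.42, 8.21, 7.75 and 7.91 in non-affected and 7.14, 6.89, 7.10 and 6.77 in affected femur. Its humerus groups covered the same range, 6.27 to 6.85 (median 6.47) and 6.16 to 6.85 (median 6.62), and its interaction was -1.18 ± 0.21 (SE, limma adjusted p = 0.0215). CES1, a carboxylesterase that cleaves esters and lipids, had an interaction of -3.20 ± 0.61 (SE, limma adjusted p = 0.032). Its non-affected femur samples were uneven, with 9.20, 7.39, 5.45 and 8.34 in non-affected and 4.34, 4.37, 4.45 and 5.07 in affected femur. In the humerus CES1 ran from 4.88 to 5.37 (median 5.14) without and from 4.89 to 5.93 (median 5.12) with the disorder, close to the lowest non-affected femur sample. ACAA2, a thiolase of mitochondrial fatty acid oxidation, was also called, with an interaction of -1.29 (limma adjusted p = 0.0396), as was ACOT6, an acyl-CoA thioesterase, with -0.70 (adjusted p = 0.0387) against -0.28 for another ACOT6 probe set.

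FAM46C, a poly(A) polymerase that stabilises messenger RNA in antibody-secreting cells, read 8.4, 9.31, 8.87 and 8.56 in non-affected and 7.37, 5.21, 5.86 and 6.62 in affected femur. The humerus ran from 5.67 to 7.33 (median 7.18) in non-affected and from 6.70 to 7.63 (median 7.10) in affected samples. The non-affected femur was again the high group, and the interaction was -2.71 ± 0.48 (SE, limma adjusted p = 0.0209), though another FAM46C probe set had 0.00. SART1, a factor of the spliceosome, read 8.81, 8.91, 7.98 and 8.60 in non-affected against 7.75, 7.29, 6.98 and 6.99 in affected femur. Its humerus values lay lower still and overlapped, from 6.16 to 6.49 (median 6.35) and from 6.07 to 6.44 (median 6.22), and its interaction was -1.24 ± 0.23 (SE, limma adjusted p = 0.026). LOC396794 had the same order of groups, at 7.24, 7.30, 7.08 and 7.46 in non-affected and 6.57, 5.46, 5.15 and 5.56 in affected femur. It ran from 4.78 to 5.25 (median 5.07) in non-affected and from 4.69 to 5.17 (median 4.94) in affected humerus, with an interaction of -1.49 ± 0.26 (SE, limma adjusted p = 0.0195). Other probe sets of SART1 and LOC396794 had interactions of -0.48 and -0.03.

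PIK3IP1 and GADD45A are called genes that leaned one way in the femur and the other way in the humerus. PIK3IP1, an inhibitor of phosphatidylinositol kinase signalling, read 8.55, 8.67, 8.64 and 7.89 in non-affected and 7.78, 7.53, 7.28 and 7.51 in affected femur. In the humerus the affected samples reached higher, from 8.04 to 8.90 (median 8.45), than the non-affected ones, from 7.75 to 8.13 (median 8.02), with some overlap. The interaction was -1.33 ± 0.25 (SE, limma adjusted p = 0.0275), against -0.58 for another PIK3IP1 probe set (limma adjusted p = 0.128). GADD45A, a stress-induced protein that restrains the cell cycle, read 8.58, 9.06, 8.49 and 8.60 in non-affected and 7.72, 6.77, 6.96 and 6.76 in affected femur. In the humerus it ran from 7.40 to 8.76 (median 8.16) without and from 7.88 to 9.88 (median 9.31) with the disorder. The femur groups were apart and the humerus groups overlapped, and the interaction was -2.41 ± 0.47 (SE, limma adjusted p = 0.033).

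The other called genes with a lower femur effect included IGFBP6, a binding protein of insulin-like growth factors, and FTL, the light chain of the iron store ferritin. IGFBP6 was called by both of its probe sets, with interactions of -2.70 and -2.44 (limma adjusted p = 0.0356 and 0.0494). FTL had -1.77 (limma adjusted p = 0.0499), against -0.35 for another probe set. The rest were TSPAN9, a tetraspanin, with -1.69, TST, a mitochondrial sulfurtransferase, with -1.15, CIRBP, a cold-inducible RNA-binding protein, with -0.98, PTGR1, a prostaglandin reductase, with -0.94, RHBDD3 with -0.86, SNAPC5 with -0.78, DCAF8 with -0.68 and MRPL18, of the mitochondrial ribosome, with -0.65 (limma adjusted p from 0.032 to 0.048). Other probe sets, none of them called, had -1.11 for TSPAN9, 0.05 and -0.36 for SNAPC5, -0.35 for DCAF8 and -0.34 for MRPL18.

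A higher femur effect was called for NUP50 and KNG1 among the named genes. NUP50, a protein of the nuclear pore, read 6.77, 6.15, 6.10 and 6.43 in non-affected and 7.38, 6.90, 7.33 and 7.30 in affected femur. In the humerus it ran from 7.31 to 7.82 (median 7.55) in non-affected and from 6.98 to 7.61 (median 7.22) in affected samples. Non-affected femur was the low group, and the interaction was 1.17 ± 0.21 (SE, limma adjusted p = 0.0215). KNG1, the precursor of the kinins, read 7.06, 7.25, 7.04 and 7.41 in non-affected and 7.70, 8.31, 8.15 and 8.13 in affected femur. Its humerus groups overlapped, from 7.52 to 8.12 (median 7.72) and from 7.36 to 8.01 (median 7.66), and the interaction was 0.98 ± 0.20 (SE, limma adjusted p = 0.0396), against 0.02 for another KNG1 probe set. The next genes in this direction missed the threshold: SREK1IP1 had 1.02 and CDC45, a part of the DNA replication helicase, had 1.05 (limma adjusted p = 0.0543 for both, and 0.07 for a second CDC45 probe set at an adjusted p of 0.902), and MLLT11 had 1.38 (adjusted p = 0.0601).

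**Figure D2:**
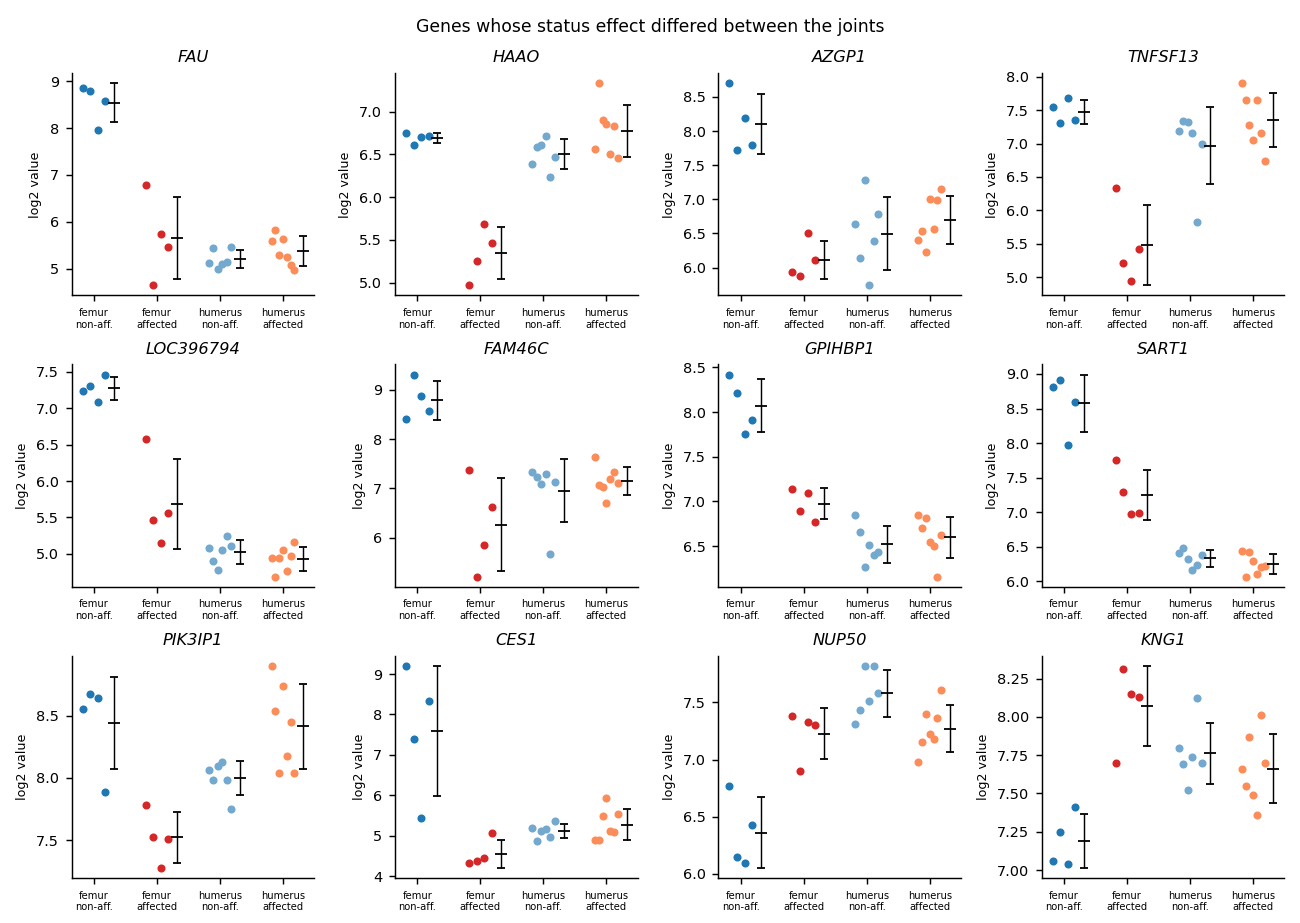
Each panel shows the log2 value of 1 gene in every sample, with non-affected femur, affected femur, non-affected humerus and affected humerus from left to right, and a black mark with bars for the mean ± SD. In 10 genes the affected femur lies below the non-affected femur and in NUP50 and KNG1 above it, while the humerus groups overlap in all 12 panels.

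The calls of single genes leaned on few samples. FAU, HAAO, AZGP1, TNFSF13 and LOC396794 were called whichever of the 21 samples was left out, as were 11 of the 45 probe sets. NUP50 and FAM46C had an adjusted p of up to 0.0603 without femur non-affected replicate 3 or femur affected replicate 3, GPIHBP1 of up to 0.0569 without femur non-affected replicate 1 and 2 or replicate 3, and SART1 of up to 0.0756 without any 1 of these samples or humerus non-affected replicate 4. PIK3IP1 lost its call (limma adjusted p of up to 0.0756) without femur non-affected replicate 1 and 2, 3 or 4, femur affected replicate 2 or 3, or humerus non-affected replicate 6. CES1 lost it (adjusted p of up to 0.0756) without femur non-affected replicate 3 or 5, femur affected replicate 2 or 3, humerus affected replicate 4, or humerus non-affected replicate 4, 5 or 6. KNG1 lost it in 15 of the 21 fits (adjusted p of up to 0.0989), all but those without femur affected replicate 1, femur non-affected replicate 5, humerus affected replicate 3 or 7, or humerus non-affected replicate 2 or 3.

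What the joints shared was tested as the mean of both effects. It was called for 22 probe sets, or 0.131% of those tested (limma adjusted p under 0.05), 18 of them lower and 4 higher in affected cartilage. Of the 22, 15 also had a called interaction, so that a large femur effect carried their mean: FAU had a mean effect of -1.36 (adjusted p = 0.0036), LOC396794 of -0.84 (0.00713), SART1 of -0.70 (0.0123) and MRPL18 of -0.39 (0.0138) with humerus effects of 0.17, -0.09, -0.08 and -0.07. CCDC51 had a mean effect of -0.77 (limma adjusted p = 0.0261), made of -1.31 in the femur and -0.24 in the humerus, and an adjusted p of up to 0.0872 without humerus non-affected replicate 2 or 3, femur non-affected replicate 3 or 5, humerus affected replicate 5 and 6, or femur affected replicate 4. Other CCDC51 probe sets had -0.3 and -0.33 in the femur and -0.02 and -0.01 in the humerus. The count of 22 fell below 15 without humerus non-affected replicate 1 (11 calls), 2 (10), 3 (9) or 6 (12), without femur non-affected replicate 1 and 2 (11), 3 (9) or 5 (10), without femur affected replicate 2 (13) and without humerus affected replicate 5 and 6 (12), and it rose to 50 without femur affected replicate 1.

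TMED10, a cargo receptor of the early secretory pathway, was lower in affected cartilage of both joints. It read 9.27, 9.43, 9.24 and 9.31 in non-affected and 8.92, 8.74, 9.15 and 8.83 in affected femur, and ran from 9.62 to 9.84 (median 9.73) in non-affected and from 8.89 to 9.58 (median 9.40) in affected humerus. Neither joint's groups overlapped, and the effects of -0.40 ± 0.13 and -0.44 ± 0.10 (SE) left an interaction of 0.04 ± 0.16 (limma adjusted p = 0.912). Its mean effect was -0.42 (limma adjusted p = 0.0432). Of 21 fits with a sample left out, 14 did not call it (adjusted p of up to 0.126), and neither did the filter at the 50th percentile, quantile normalization or array weights (up to 0.0609). The fits with a sample left out that did call it were those without femur affected replicate 1 or 3, femur non-affected replicate 4, humerus affected replicate 1, 7 or 8, or humerus non-affected replicate 5. A second TMED10 probe set had 0.14 in the femur and -0.25 in the humerus.

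At an unadjusted p under 0.05 in both joints, 53 probe sets, or 0.315% of those tested, had effects of the same sign and 123, or 0.732%, of opposite sign. The femur effect alone met that bound in 20.4% of probe sets and the humerus effect in 6.55%, and 57.6% had opposite signs at any p. The number that unrelated effects would give was not worked out, so the counts are descriptions. The 53 comprised 24 lower and 29 higher in affected cartilage. Without humerus affected replicate 2 or 4 they were 29 and 34. The other genes named here did not pass the adjusted test of the mean effect and are given as values. EXOSC7, a subunit of the RNA exosome, had effects of -0.52 and -0.55 in femur and humerus, TUSC2 of -0.60 and -0.31, and SLC29A1, a nucleoside transporter, of -0.46 and -0.23. ANGPTL4, an inhibitor of lipoprotein lipase that responds to fasting and low oxygen, had 1.40 and 1.07. Its affected femur samples read 8.65, 10.21, 11.36 and 10.48 and the non-affected ones 8.0, 8.56, 8.94 and 9.61, and its humerus values ran from 9.34 to 10.83 (median 10.01) with and from 8.65 to 9.64 (median 8.91) without the disorder, so the groups overlapped in both joints. NKAP had 0.29 and 0.23, also with overlap in both joints. SLC29A1 had an unadjusted humerus p of up to 0.0743 (limma) without humerus non-affected replicate 1 or 3 or humerus affected replicate 2 or 5 and 6, and NKAP missed the threshold in 1 of the joints without any of 15 samples (unadjusted p of up to 0.124).

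**Figure D3:**
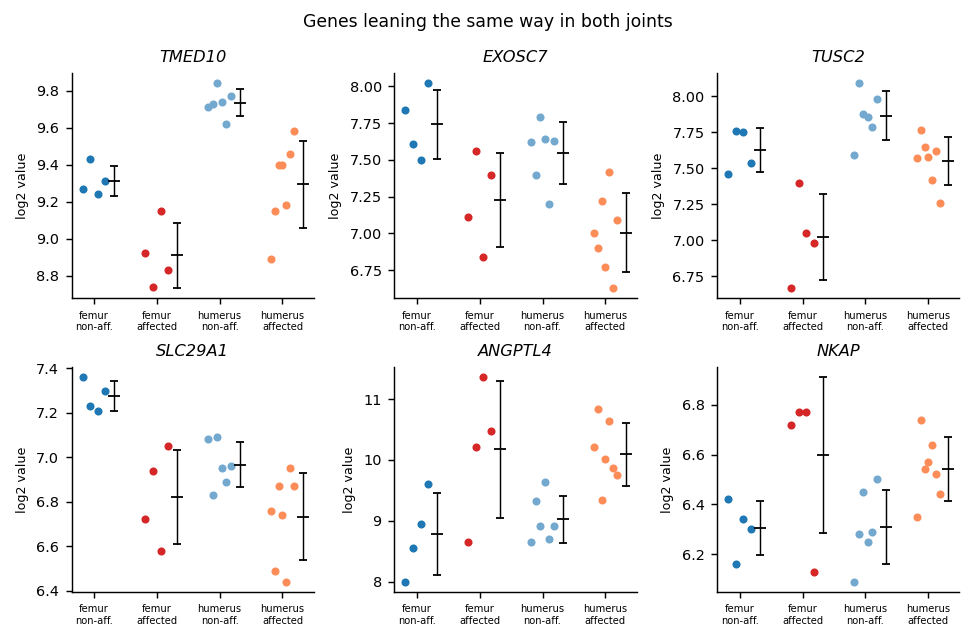
Log2 values of 6 genes whose effects had the same sign in both joints, in every sample, with the mean ± SD in black and the groups in the order non-affected femur, affected femur, non-affected humerus, affected humerus. TMED10 is the panel in which neither joint's groups overlap, and EXOSC7, ANGPTL4 and NKAP overlap in both joints.

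Among the 123 probe sets with opposite signs, 72 were higher and 51 lower in affected femur, and 11 of the 123 had a called interaction. The number was 72 without humerus affected replicate 1, 63 without 2, 74 without 4, 186 without 7 and 206 without 8, and 235, 70 and 78 without humerus non-affected replicate 2, 5 and 6, and 70 without femur non-affected replicate 4. With the femur higher, SARS, which charges transfer RNA with serine, had 0.51 in the femur and -0.35 in the humerus, CDC45 had 0.66 and -0.39 (0.10 and 0.03 by its second probe set), MLLT11 had 0.86 and -0.52, and CD93, a receptor of endothelial and myeloid cells, had 1.06 and -0.94. With the femur lower, MGST3, a microsomal glutathione transferase, had -0.73 and 0.55, GADD45A -1.63 and 0.78, PIK3IP1 -0.91 and 0.41, and ACOT6 -0.48 and 0.22. Other probe sets had -0.26 and 0.31 for PIK3IP1, and -0.35 and -0.07, of the same sign, for ACOT6. Interactions of SARS, CD93 and MGST3 were 0.86, 2.0 and -1.28 and did not pass the threshold (limma adjusted p = 0.0838, 0.0879 and 0.111). The unadjusted limma p rose to 0.0888 for CD93 in the femur without femur non-affected replicate 4 and to 0.0636 for ACOT6 in the humerus without humerus non-affected replicate 5. For MGST3 it rose to 0.0571 in the femur without femur affected replicate 2 or 3 or femur non-affected replicate 4, and to 0.0774 in the humerus without humerus affected replicate 2 or humerus non-affected replicate 5.

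Gene lists were described by the brightest probe set of each gene, with no test of a list. Of 25 lists with at least 5 genes tested, 17 had median effects of opposite sign in the joints, 11 with the femur lower and 6 with the femur higher, 6 were higher in both and 2 lower in both. The background for their counts is the whole set tested, in which 53.5% of interactions were above 0 and the median interaction was 0.035. Of 322 list genes tested, 5 carried a called interaction in any probe set, or 1.55%, against 25 of all 5905 named genes tested, or 0.423%. They were FAU, HAAO, TNFSF13, IGFBP6 and KNG1, and the lists were drawn up with earlier results of these data known.

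**Figure D4:**
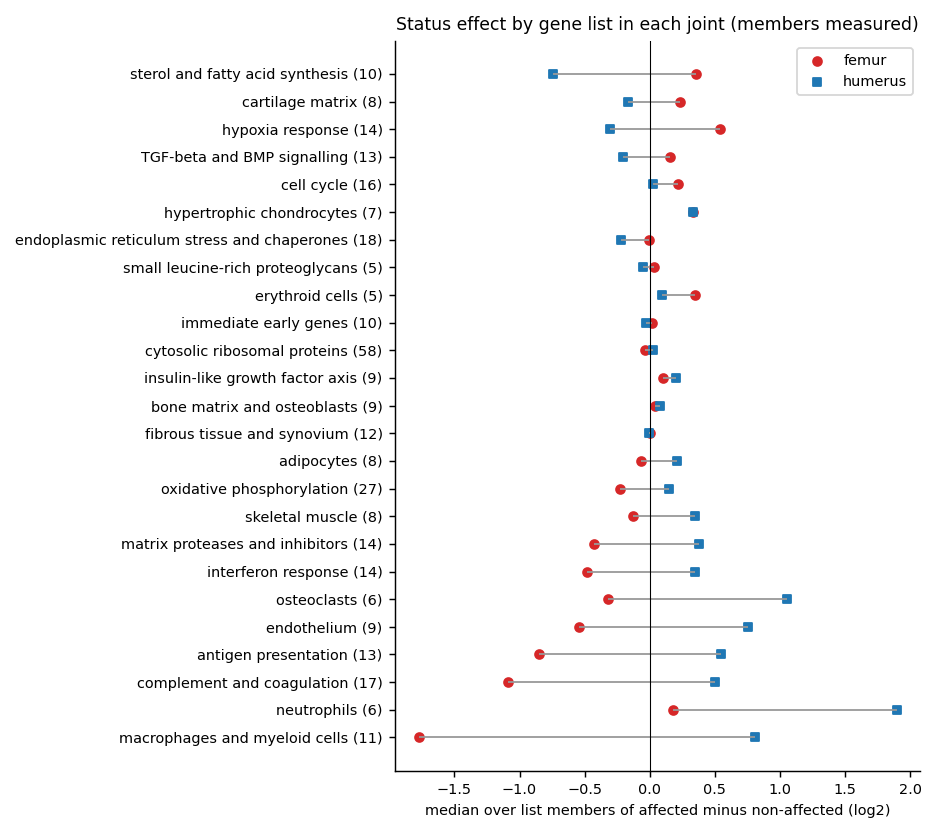
For each of 25 gene lists the median over its members of affected minus non-affected (log2) is drawn for the femur (red circles) and the humerus (blue squares), with the number of members measured in brackets and the lists ordered by median interaction. Macrophage, complement and antigen presentation genes lie left of 0 in the femur and right of it in the humerus, and sterol synthesis, cartilage matrix and hypoxia genes the other way round.

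Macrophage and myeloid genes had the lowest median interaction of these lists, at -2.79, made of -1.77 in the femur and 0.81 in the humerus. All 11 members tested leaned down in affected femur and up in affected humerus, 9 with an unadjusted interaction p under 0.05 (18.9% of all probe sets), and none was called. C1QC, a chain of the complement starter C1q made by macrophages, had an interaction of -3.59, FCER1G, an Fc receptor chain, of -2.80 and LAPTM5, a lysosomal protein of blood cells, of -2.75 (limma adjusted p = 0.129, 0.14 and 0.154). The mean of the list ran from 4.60 to 6.14 in affected and from 5.92 to 7.75 in non-affected femur, and from 6.91 to 9.36 in affected and from 5.38 to 8.81 in non-affected humerus, with no member at the floor throughout a group. These groups overlapped in both joints, and the spread within a group was wide.

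Other lists leaned the same way, and those of antigen presentation and of complement share members with it. Antigen presentation genes had a median interaction of -1.33, with 12 of 13 below 0. CIITA, the switch for class II genes, had -0.98, TAP1, the peptide transporter, -0.90 and SLA-DRB1, a class II chain, -3.91 (limma adjusted p = 0.0766, 0.117 and 0.139), while other TAP1 probe sets had 0.39 and -1.17. Complement and coagulation genes had a median of -1.48 with 15 of 17 below 0, KNG1 being one of the exceptions, and interferon response genes one of -0.80 with 13 of 14 below 0, of which MX2 had -0.63 (limma adjusted p = 0.153). The interferon median was -0.47 without femur non-affected replicate 4 and -1.40 with the filter at the 50th percentile. Matrix proteases and their inhibitors had a median of -0.74, and MMP3, stromelysin, came near the threshold with -4.31 (limma adjusted p = 0.0692), lower by 3.10 in affected femur and higher by 1.21 in affected humerus. Other MMP3 probe sets had interactions of -3.58, -1.75 and -0.38 (limma adjusted p = 0.0829, 0.155 and 0.344).

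Markers of cells found beside cartilage differed between lists in which joint had the larger median effect. Osteoclast genes had a median of -0.32 in the femur and 1.05 in the humerus, with ACP5, the acid phosphatase of osteoclasts, at an interaction of -3.58 (limma adjusted p = 0.203). Neutrophil genes had 0.18 in the femur and 1.89 in the humerus, with all 6 up in affected humerus and none called, and their median interaction went from -1.73 to -2.72 without humerus non-affected replicate 2. Endothelial genes had -0.55 and 0.76, with CDH5, the cadherin of vessel walls, at -2.38 (limma adjusted p = 0.204). Neutrophil list means ran from 4.66 to 11.50 in non-affected and from 5.17 to 10.76 in affected humerus, so these humerus samples differed widely within both groups. In the femur the neutrophil list lay near the floor, with means of 4.84 in affected and 4.72 in non-affected samples. A fall there could hardly show. Its member LTF was at the floor in 3 affected and 2 non-affected femur samples, and the endothelial gene VWF in 3 affected and 1 non-affected. Fibrous tissue and synovium genes had medians near 0 in both joints, with 6 members up and 6 down in each. Of these 12, 5 had an unadjusted interaction p under 0.05 (limma), against 18.9% of all probe sets. In each joint 4 of the 12 had an unadjusted limma p under 0.05, against 20.4% of all probe sets in the femur and 6.55% in the humerus. Bone matrix genes had medians of 0.04 and 0.08, adipocyte genes -0.06 and 0.21, skeletal muscle genes -0.13 and 0.35 and erythroid genes 0.35 and 0.10. Of lymphocyte genes 3 of 17 could be tested, with TNFSF13 among them. The part of these cell types in the called interactions was not tested. TNFSF13 and FAM46C were lowest among the non-affected humerus samples in replicate 5, at 5.82 and 5.67, and the macrophage list was lowest in the same sample, at 5.38. Non-affected humerus replicate 1 came next lowest in the macrophage list, at 6.455, and read 7.18 for TNFSF13 and 7.33 for FAM46C. Whether these genes followed the macrophage list over all samples was not tested.

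**Figure D5:**
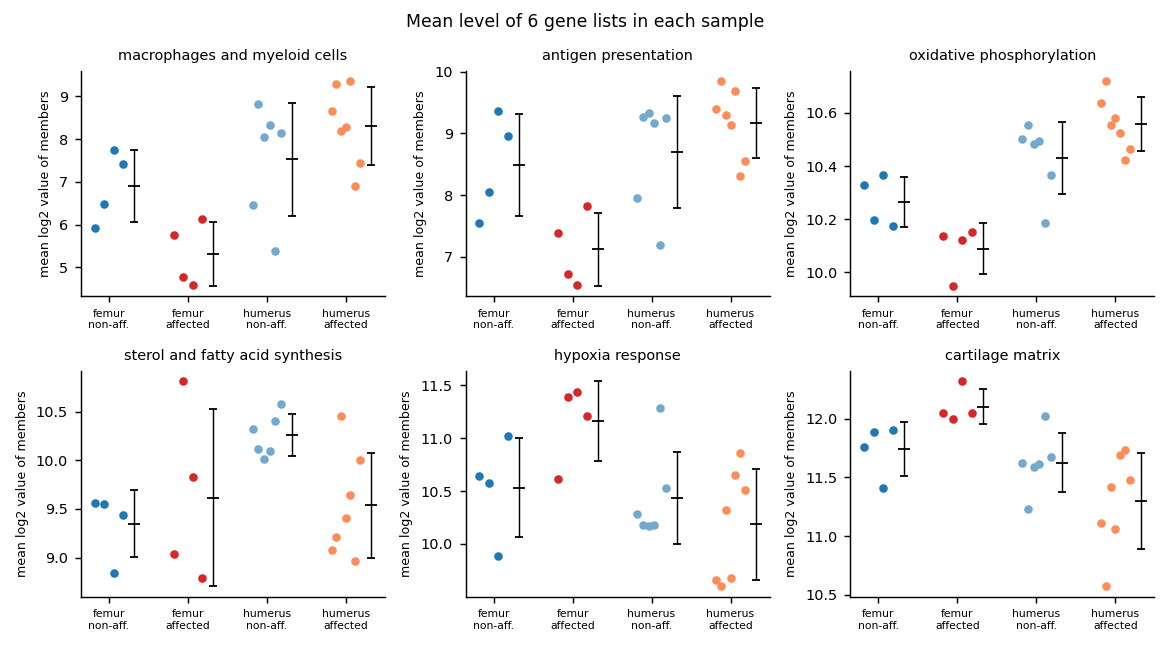
Mean log2 value of the members of 6 gene lists in every sample (points), with the mean ± SD of each group in black. Macrophage and antigen presentation genes have their lowest group mean in affected femur, where the macrophage list runs from 4.60 to 6.14. The hypoxia list runs from 10.62 to 11.44 in affected femur against 9.60 to 10.86 in affected humerus. In such levels across joints, joint and array processing cannot be told apart.

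Genes of cartilage matrix, of the hypoxia response and of sterol and fatty acid synthesis leaned the other way. Cartilage matrix genes had a median interaction of 0.94, with 7 of 8 above 0 and all 8 of opposite sign in the joints. The mean of the list ran from 12 to 12.32 in affected and from 11.41 to 11.91 in non-affected femur, without overlap, and from 10.57 to 11.73 in affected and from 11.24 to 12.02 in non-affected humerus, with overlap. COL11A1, a fibril collagen, had 0.96, HAPLN1, which links aggrecan to hyaluronan, 1.16 and SOX9, the master regulator of chondrocytes, 0.99 (limma adjusted p = 0.159, 0.197 and 0.231). Hypoxia response genes had a median of 0.54 in the femur and -0.30 in the humerus, with 13 of 14 interactions above 0. EGLN1, the oxygen sensor, had 0.91, SLC2A1, a glucose transporter, 1.46 and LDHA, lactate dehydrogenase, 0.73 (limma adjusted p = 0.115, 0.145 and 0.189). Sterol and fatty acid synthesis genes had a median interaction of 1.07 with all 10 above 0, with a median of -0.75 in the humerus and 0.36 in the femur. It fell to 0.64 without femur affected replicate 2. SQLE, squalene epoxidase, had 1.31, SCD, a fatty acid desaturase, 1.30 and SREBF2, the regulator of sterol genes, 0.73 (limma adjusted p = 0.201, 0.201 and 0.203). No member of these 3 lists was called.

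Oxidative phosphorylation genes differed by little but in many members. Their median effect was -0.23 in the femur and 0.14 in the humerus. An unadjusted interaction p under 0.05 (limma) was found in 14 of 27, against 18.9% of all probe sets. In 23 genes affected samples were lower in the femur and higher in the humerus, in 3 the reverse, and in 1 lower in both. Over all probe sets tested, 26.5% were lower in affected femur and higher in affected humerus. The femur groups did not overlap in 9 of the 27, against 8.08% of all probe sets. NDUFA4 and NDUFA2, subunits of the respiratory chain, had interactions of -0.74 and -0.71, whereas ATP5J, a subunit of the ATP synthase, had 0.68 (limma adjusted p = 0.113, 0.133 and 0.0999). The mean of the list ran from 9.95 to 10.15 in affected and from 10.17 to 10.36 in non-affected femur, and from 10.42 to 10.72 in affected and from 10.18 to 10.55 in non-affected humerus. Its femur groups did not overlap and its humerus groups did, and none of its members was called.

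The remaining lists moved less. Transforming growth factor beta and bone morphogenetic protein genes had a median interaction of 0.37 with 8 of 13 above 0, among them TGFB1 with 1.21 and its receptor TGFBR1 with 2.1 (limma adjusted p = 0.138 and 0.165). The median was 0.19 without femur non-affected replicate 4, 0.22 without femur affected replicate 4 and 0.21 with array weights. Cell cycle genes had 0.26 with 14 of 16 above 0, but 0.02 without femur affected replicate 3, 0.16 without femur non-affected replicate 4, 0.17 without humerus non-affected replicate 1 or humerus affected replicate 7, and 0.12 with 23 arrays. CDK2, a kinase of S phase entry, had 0.49 (limma adjusted p = 0.157) and, by another probe set, -0.25. Endoplasmic reticulum stress genes had 0.20, small leucine-rich proteoglycans 0.19 and hypertrophic chondrocyte genes 0.24. The last had effects of 0.33 in both joints, and its interaction was -0.12 without femur affected replicate 3. Cytosolic ribosomal protein genes had -0.05 over 58 members, 44 of them below 0, and RPL34 had -0.31 (limma adjusted p = 0.25), so the called FAU probe set stood far from that list. Insulin-like growth factor genes had -0.11, with IGFBP2, another binding protein, at -2.16 (limma adjusted p = 0.179) beside the called IGFBP6. Immediate early genes had -0.03, a median that turned to 0.32 without femur affected replicate 4, with KLF4 at 1.41 and IER2 at -1.15 (limma adjusted p = 0.159 and 0.191). Of the kynurenine pathway 3 of 10 listed genes could be tested, and beside HAAO they were KYNU with -0.39 and KMO with -0.62 (limma adjusted p = 0.254 and 0.522).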

How the data were processed

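The deposited table holds log2 values, 1 per probe set and array, as the authors processed them. GCOS 1.1.1 appears in the submitters' processing notes; a normalisation method was not given in the sources used here. A floor lies near 4 (16 on a linear scale). Values were used as deposited. Of 24123 probe sets, 124 controls were left out. Of the rest, 10069 had 1 gene symbol in the platform annotation, 198 had several and 13732 were not named, and 9961 symbols matched RefSeq genes. The filter kept probe sets whose mean reached the 30th percentile.

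Groups came from the site and status labels. Close arrays were averaged. A fit of 4 group means was made in limma 3.58.1 (R 4.3.3), with Benjamini-Hochberg adjustment over 16799 probe sets, and was tested on simulated data. The number of arrays limits the precision. Named genes are those of 1 symbol with the smallest p in each direction: 10 for the interaction (filled up to 5 with values only), 6 for the mean effect, 4 for each pair of signs at an unadjusted p under 0.05 in both joints, and 3 for each list. The members and lists were chosen with earlier results of these data known. Alternatives were other filters, scalings, variance models and weights, 23 arrays, the brightest probe set per gene, and each sample left out. No sequences are shown.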

Additional observations from a re-analysis of the deposited data

Results flagged for a closer look

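The interaction passed its test in 25 genes (limma, adjusted p under 0.05). The 12 with the smallest p in each direction (10 lower and 2 higher in the femur) were FAU at -3.07, HAAO at -1.62, AZGP1 at -2.20, TNFSF13 at -2.37, LOC396794 at -1.49, FAM46C at -2.71, GPIHBP1 at -1.18, SART1 at -1.24, PIK3IP1 at -1.33 and CES1 at -3.20 with a lower femur effect, and NUP50 at 1.17 and KNG1 at 0.98 with a higher one.

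In 22 of 164 groups examined, 1 sample lay far from the rest of its group by Dixon's criterion, which chance meets in about 1 in 20 groups. Among the named genes these were NUP50 in femur affected replicate 2 (6.90), PIK3IP1 in femur non-affected replicate 5 (7.89), CES1 in femur affected replicate 4 (5.07), and TNFSF13 (5.82) and FAM46C (5.67) in humerus non-affected replicate 5. The last of these samples was also low in the hypertrophic chondrocyte list mean (8.07) and high in the hypoxia list mean (11.28).

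Among the list means, femur non-affected replicate 4 was high for hypertrophic chondrocytes (9.15) and bone matrix (9.34) and low for sterol synthesis (8.85). Femur affected replicate 2 was low for oxidative phosphorylation (9.95) and high for endoplasmic reticulum stress (10.55). Other femur samples were affected replicate 1 for erythroid cells (7.19), replicate 3 for cartilage matrix (12.32) and replicate 4 for immediate early genes (10.14), and the averaged non-affected replicate 1 and 2 for the insulin-like growth factor axis (7.47). In the humerus, non-affected replicate 2 was high for neutrophils (11.50) and erythroid cells (7.69) and non-affected replicate 6 for skeletal muscle (6.28). Affected replicate 7 was low for hypertrophic chondrocytes (8.39), and affected replicate 8 was high for skeletal muscle (8.84) and low for the insulin-like growth factor axis (7.48).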

How the results depend on the processing

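The interaction gave 45 calls, 224 when the 23 arrays were all counted, 21 with array weights, and 15 to 98 when each sample was left out in turn. With quantile normalization 31 of the 45 were called and no others. Arrays centred on their medians gave 50 calls, of which 41 were among the 45. The interaction gave 61 calls with no filter, 37 with a filter at the 50th percentile and 36 with only the brightest probe set per gene. The mean effect gave 22 calls, 34 with no filter, 8 with a filter at the 50th percentile, 61 with 23 arrays, 2 with only the brightest probe set per gene, and 9 to 50 when each sample was left out. Opposite signs gave 123 probe sets, 208 with 23 arrays, 52 with the brightest probe sets, and 63 to 235 when each sample was left out, and shared signs 53, 16 with the brightest probe sets, and 29 to 77 when each sample was left out. The brightest setting tests 5905 probe sets in place of 16799; the cause of the other shifts was not tested. KNG1 lost its interaction call with arrays centred on their medians, with quantile normalization and with array weights, and PIK3IP1 lost its call with array weights. TMED10 lost its mean-effect call with the filter at the 50th percentile, quantile normalization and array weights. In descriptions by unadjusted p, NKAP missed 0.05 in the femur with centred arrays and quantile normalization, and MGST3 in the humerus with array weights. Median interactions that crossed 0 when each sample was left out were those of hypertrophic chondrocyte genes, from -0.12 (without femur affected replicate 3) to 0.35, bone matrix genes, from -0.23 to 0.05, immediate early genes, from -0.17 to 0.32, and erythroid genes, from -0.35 to 0.23. The last 2 lists also crossed 0 under other settings, from -0.05 to 0.04 and from -0.24 to 0.04. The skeletal muscle median of -0.60 ran from -0.94 to -0.06. No paired analysis was possible because the labels do not say which arrays came from sibs or from 1 animal.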
